A study of Mus musculus with 7 samples.

Results

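The platelet-derived growth factor (PDGF) genes of the mouse mammary gland are described here: the 4 ligand genes Pdgfa, Pdgfb, Pdgfc and Pdgfd, the receptor tyrosine kinase genes Pdgfra and Pdgfrb, and Pdgfrl, a receptor-like gene without a kinase. They were chosen by symbol, 7 of the 27998 genes of a single-cell RNA count matrix, and all 7 had counts. The cells came from the #4 abdominal glands, without their lymph nodes, of 3 young (Young A, B and C, 3 to 4 months) and 4 aged (Aged A to D, 13 to 14 months) females. All were nulliparous and at diestrus, and their genetic background mixed FVB, 129 and C57BL/6J. The labels name no treatment. The glands were digested with enzymes, 1 library per mouse was made with the 10x 3′ v2 chemistry, and each mRNA molecule was counted once through its unique molecular identifier (UMI). The deposited cell types were used: fibroblasts, pericytes, vascular and lymphatic endothelial cells, myoepithelial cells, hormone-sensing (HS) and alveolar (AV) luminal cells, HS-AV cells and 5 immune types.

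PDGF ligands act as dimers that bring receptor chains together. The alpha receptor answers to the A, B and C chains, and the beta receptor answers mainly to the B and D chains. In vessels, endothelial PDGF-B recruits and holds pericytes, which carry the beta receptor, while the alpha receptor is a general mark of fibroblasts. The C and D chains are released as latent forms that proteases cleave.

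The mice gave 1264 to 2865 cells and 6652599 to 16999625 UMIs each. Young mice held 184 to 1034 fibroblasts and aged mice 15 to 121, so the aged fibroblast values rest on few cells. Of the barcodes, 101 were found in more than 1 mouse. Each library held 1 mouse and so 1 age, so that effects of age and of the handling of a library cannot be told apart. The 6 fibroblast markers (Col1a1, Col1a2, Col3a1, Fn1, Dcn, Lum) summed to a mean of 18604 in fibroblasts and the 5 vascular endothelial markers to 2080 in vascular endothelial cells. Pericytes held 1348 of their own 6 markers and 1287.5 of the endothelial ones, and the Pdgfa and Pdgfrb levels of pericytes are given below also by whether a cell carries an endothelial UMI. These levels, and all below, are in CPM, the UMIs of a gene in 1000000 UMIs of the summed cells of a type in a mouse. They are not scaled by transcript length, so they are compared between samples and not between genes.

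Pdgfa lies at chr5:138976014-138997370 (GRCm38, minus strand, GENCODE vM21), a protein-coding gene whose span overlaps 6330403L08Rik on the opposite strand. Pdgfd lies at chr9:6168584-6378850 on the plus strand, overlapping Ddi1 on the opposite strand. Their promoters are shown because Pdgfa was the ligand with the smallest adjusted p for age and Pdgfd was found in fibroblasts and pericytes. RefSeq windows on GRCm38.p6 were found for 4 of the 7 genes, with 2 start sites for Pdgfa. The 250 bases before each start follow, 5′ to 3′ on the gene's strand, from chr5:138994945-138995194, chr5:138994282-138994531 and chr9:6168236-6168485, with capitals that mark a match on either strand to the GC box letters GGGCGG, or to the TATA box letters TATAAA.
Pdgfa, outer start: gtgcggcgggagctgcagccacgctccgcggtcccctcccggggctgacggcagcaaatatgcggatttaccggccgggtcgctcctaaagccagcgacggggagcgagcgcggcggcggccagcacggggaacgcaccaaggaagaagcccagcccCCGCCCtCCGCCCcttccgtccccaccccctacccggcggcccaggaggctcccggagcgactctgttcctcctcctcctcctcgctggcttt
Pdgfa, inner start: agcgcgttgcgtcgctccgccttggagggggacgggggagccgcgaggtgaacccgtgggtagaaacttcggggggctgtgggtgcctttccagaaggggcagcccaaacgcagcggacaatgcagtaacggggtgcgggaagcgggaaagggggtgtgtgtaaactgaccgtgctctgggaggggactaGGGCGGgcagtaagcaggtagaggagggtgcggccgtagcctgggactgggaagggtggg
Pdgfd: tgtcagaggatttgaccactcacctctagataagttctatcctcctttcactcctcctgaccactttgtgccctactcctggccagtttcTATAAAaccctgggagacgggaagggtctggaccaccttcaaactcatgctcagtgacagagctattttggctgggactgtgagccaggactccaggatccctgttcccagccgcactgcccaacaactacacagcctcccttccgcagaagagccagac

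The outer Pdgfa window held 72.4% G and C and 2 GC boxes that do not overlap, and the inner one held 66.4% and 1 GC box. The Pdgfd window held 53.6% and 1 TATA box. Over 32851 windows of the same length the median was 52.4%, 32.7% held a GC box and 12.4% a TATA box. The windows of Pdgfra (54.4%) and Pdgfc (50.8%) held neither. A CCAAT box, in 33.9% of all windows, was found in none of the 5 windows.

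Pdgfa, which encodes the A chain, was highest in pericytes and Mb macrophages and low in fibroblasts. In pericytes its level was 76.8, 156 and 224 CPM in Young A, B and C and 286, 175, 187 and 206 CPM in Aged A to D, a mean of 187 ± 64.4 (SD, n = 7). Mb macrophages held 119 ± 87.3 CPM (SD, n = 7) on 68 UMIs. Myoepithelial cells held 58.0 ± 16.5 CPM, and fibroblasts held 0 to 9.14 CPM in every mouse. The pericyte level exceeded that of vascular endothelial cells in 7 of 7 mice and that of fibroblasts in 7 of 7, while the SD ranges of pericytes and Mb macrophages, next in order, overlapped.

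In vascular endothelial cells Pdgfa rose with age. Young A, B and C held 11.7, 22.3 and 34.4 CPM, and Aged A to D held 51.9, 64.3, 88.2 and 47.0 CPM. All aged mice lay above all young mice. The edgeR quasi-likelihood test, with Benjamini-Hochberg adjustment over all genes tested in the type, gave a log2 fold change of 1.93 (SE 0.32, adjusted p = 0.0006), 3.81-fold. It was 1 of 3 members tested there that passed the call, an adjusted p under 0.05 with at least 1.5-fold, where 26.7% of all 7864 genes tested passed. In cells with 0 UMIs of the pericyte genes Rgs5, Des and Notch3 the change was 2.18 (edgeR, adjusted p = 0.00032). Markers of other cells moved too. All 3 myeloid markers had UMIs, and their summed level was 617 to 8699 CPM in aged and 197 to 598 CPM in young mice, nearly all of it Cd74, while Lyz2 was at most 2.12 CPM in aged mice. All 3 adipocyte markers had UMIs, and Fabp4, which capillary endothelium also makes, was 10546 to 11897 CPM in aged and 31300 to 39097 CPM in young mice, with Adipoq at 0 in all aged mice. The fibroblast markers (all 6 with UMIs) summed to 82.2 to 378 CPM in young and 43.3 to 67.8 CPM in aged mice, the pericyte markers (all 6) to 114 to 388 and 6.98 to 74.9 CPM, and the lymphatic markers (all 4) to 13.7 to 20.7 and 6.29 to 8.91 CPM. Their part in the Pdgfa result was not tested.

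In myoepithelial cells Pdgfa was 80.3, 54.1 and 77.9 CPM in young mice and 52.4, 52.0, 56.9 and 32.5 CPM in aged mice, with overlapping groups. The log2 fold change was -0.53 (SE 0.24, edgeR adjusted p = 0.11), which did not pass. The age effect in vascular endothelial cells minus that in myoepithelial cells, a comparison chosen after the values were seen, was 2.05 on log2(CPM + 1) within each mouse (exact two-sided permutation test, p = 0.029, the smallest that 35 divisions of 7 mice allow). An edgeR fit of the same difference gave 2.45 (adjusted p = 2.6e-05, adjusted over genes and not over the choice of types). The within-mouse difference was -2.68, -1.24 and -1.16 in young mice and -0.01, 0.30, 0.62 and 0.52 in aged mice.

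**Figure D1:**
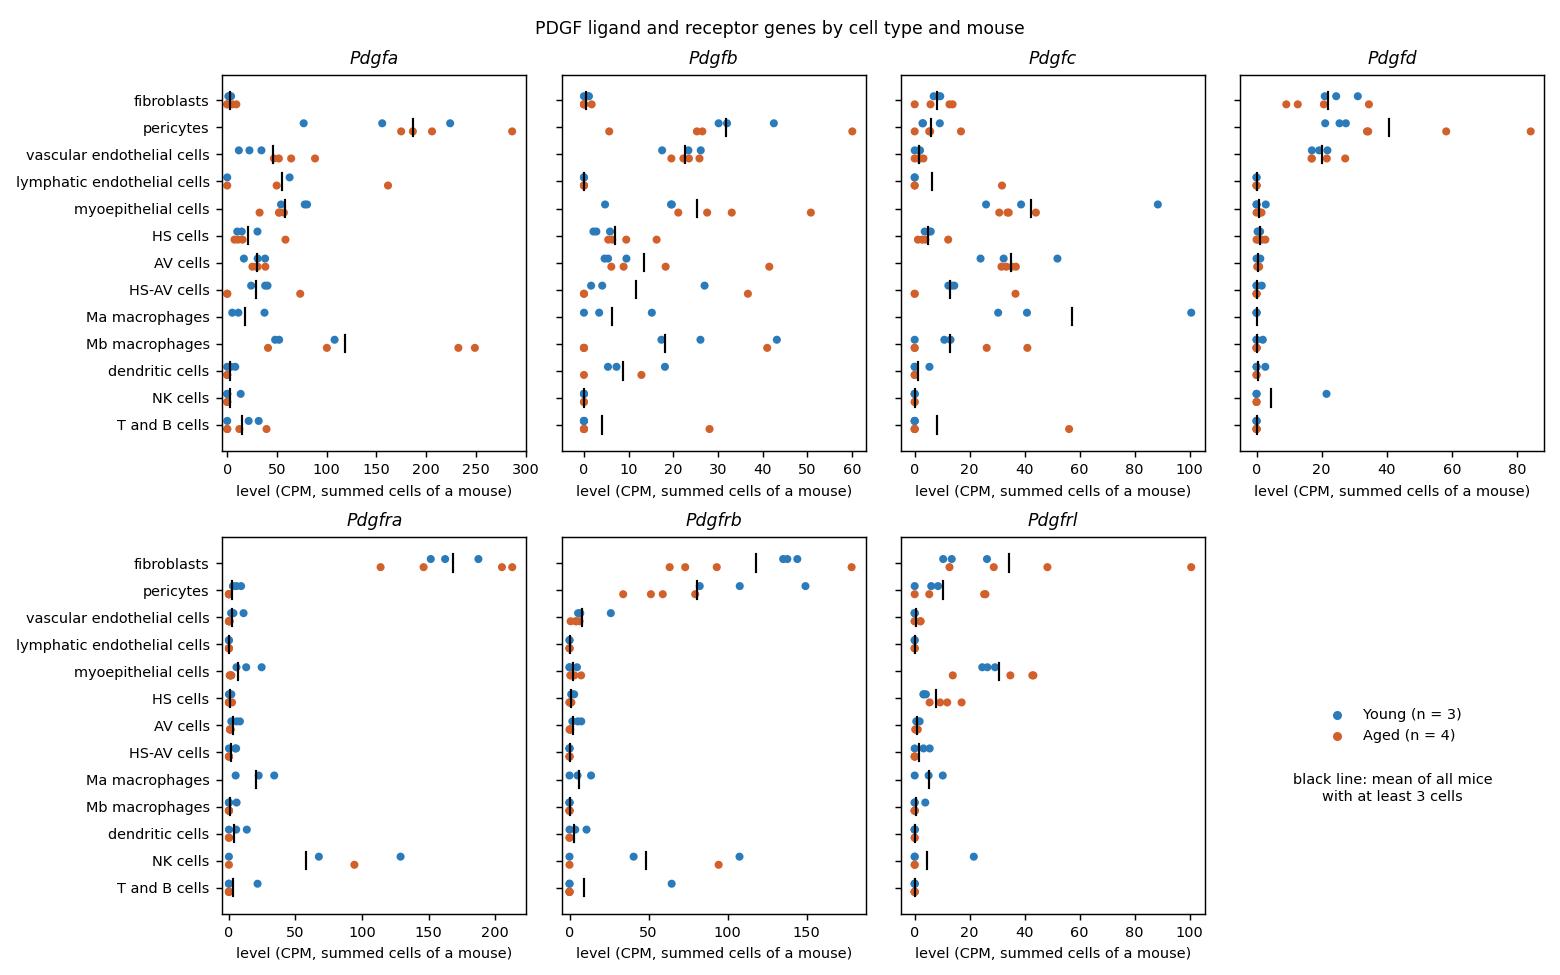
Level of each PDGF gene (CPM, horizontal axis, a different range in each panel) in 13 cell types (vertical axis). Each point is 1 mouse with at least 3 cells of the type, blue for young and orange for aged, and the black line is the mean. Pdgfra and Pdgfrb stand highest in fibroblasts, at means of 169 and 118 CPM, and Pdgfa stands highest in pericytes.

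Pdgfb, which encodes the B chain and lies at chr15:79995874-80014977 (minus strand), was found in pericytes, myoepithelial cells and vascular endothelial cells at 31.7 ± 16.7, 25.2 ± 14.3 and 22.6 ± 3.16 CPM (SD, n = 7 each), with overlapping SD ranges. In fibroblasts it stayed at or under 1.72 CPM in every mouse. Vascular endothelial cells were even across mice, at 17.5, 26.1 and 23.4 CPM in young and 22.2, 19.6, 25.8 and 23.5 CPM in aged mice. The groups overlapped there, with a log2 fold change of 0.40 (SE 0.24, edgeR adjusted p = 0.23).

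Pdgfb rose with age in myoepithelial cells. The level was 4.72, 19.7 and 19.5 CPM in Young A, B and C and 27.6, 33.1, 50.8 and 21.1 CPM in Aged A to D. The groups did not overlap, and the log2 fold change was 1.68 (SE 0.48, edgeR adjusted p = 0.015). Of the 4 members tested in the type Pdgfb alone was called, where 27.6% of all genes tested were called. Without Young A, the lowest mouse, the change was 0.80 (edgeR adjusted p = 0.28) and was not called. Of the other cells' markers, all 5 vascular endothelial ones had UMIs and summed to 19.5 to 54.1 CPM in young and 11.4 to 46.2 CPM in aged mice, and all 6 fibroblast ones summed to 423 to 808 CPM in young and 54.8 to 188 CPM in aged mice. The 3 myeloid markers summed to 167 to 256 CPM in young and 34.8 to 73.6 CPM in aged mice, and the adipocyte markers, with Adipoq at 0 in all mice, to 185 to 590 CPM in young and 16.9 to 137 CPM in aged mice. Epcam, an epithelial adhesion gene, was 371 to 484 CPM in young and 1459 to 2089 CPM in aged mice. Their part in the Pdgfb result was not tested.

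The other epithelial Pdgfb values went the same way without passing. HS cells held 5.83, 2.12 and 2.78 CPM in young and 16.3, 6.33, 5.43 and 9.46 CPM in aged mice, overlapping only through Young A and Aged C, a log2 fold change of 1.50 (SE 0.43, edgeR adjusted p = 0.064). With TMM size factors these groups did not overlap, as for 21.5% of all genes tested in HS cells. AV cells held 4.62 to 9.50 CPM in young mice and 41.5, 8.87, 18.3 and 6.12 CPM in aged mice, a log2 fold change of 1.67 (SE 0.70, adjusted p = 0.18). Aged A gave the highest value in both types.

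Pdgfc, which encodes the C chain and lies at chr3:81036416-81214040 (plus strand), was highest in Ma macrophages, myoepithelial cells and AV cells. AV cells gave 1181 of its 1721 UMIs and held 35.05 ± 8.50 CPM (SD, n = 7). Myoepithelial cells held 42.3 ± 21.2 CPM and were higher than AV cells in 5 of 7 mice. Ma macrophages, caught in young mice only at 3 or more cells, held 30.4, 101 and 40.9 CPM. HS-AV cells held 12.8 ± 13.4 CPM (SD, n = 6), HS cells 4.96 ± 3.54 CPM and fibroblasts 8.15 ± 4.61 CPM (SD, n = 7 each). The log2 fold change with age was 0.20 in AV cells (SE 0.25, edgeR adjusted p = 0.69) and -0.24 in myoepithelial cells (SE 0.30, adjusted p = 0.60).

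Pdgfd, which encodes the D chain, was a gene of fibroblasts and vessels. Fibroblasts gave 224 of its 521 UMIs, vascular endothelial cells 197 and pericytes 60, while no other type gave more than 17. Pericytes held 21.1, 25.5 and 27.4 CPM in young and 84.2, 58.3, 33.9 and 34.3 CPM in aged mice. These values rest on 14, 9 and 6 UMIs in young and 10, 11, 6 and 4 UMIs in aged mice. The groups did not overlap, but the gene did not pass the count filter there and was not tested. On levels with TMM size factors, 24% of all genes tested in pericytes had groups that did not overlap. The endothelial marker sum of pericytes was also lower in every aged mouse (733 to 1244 CPM) than in any young one (1628 to 1759 CPM), and its part in the Pdgfd values was not tested. Fibroblasts held 21.9 ± 9.14 CPM and vascular endothelial cells 20.1 ± 3.79 CPM (SD, n = 7 each). Its log2 fold change was -0.11 in fibroblasts (SE 0.39, edgeR adjusted p = 0.95) and 0.47 in vascular endothelial cells (SE 0.24, adjusted p = 0.16).

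Pdgfra, which encodes the alpha receptor and lies at chr5:75152292-75198215 (plus strand), was a fibroblast gene. Of its 1736 UMIs, 1573 (90.6%) came from fibroblasts. Their level was 187, 162 and 152 CPM in Young A, B and C and 205, 213, 114 and 146 CPM in Aged A to D. The aged mice spanned the young ones on both sides. The log2 fold change was 0.20 (SE 0.24, edgeR adjusted p = 0.71). With no filter on low counts it was -0.02. Of the 4 members tested in fibroblasts 0 were called by edgeR and 0 by DESeq2 (1, Pdgfrl, had an unadjusted edgeR p under 0.05), where 3.17% of all genes tested passed.

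Outside fibroblasts the highest Pdgfra levels were in NK cells (58.2 ± 57.4 CPM, SD, n = 5) and Ma macrophages (20.5 ± 14.6 CPM, SD, n = 3), on 13 UMIs each. Of the 9 NK cells with a UMI of either receptor, 8 also had UMIs of at least 3 of the 6 fibroblast markers, against 1 of the 31 NK cells without a receptor UMI. For Ma macrophages these numbers were 9 of 11 against 5 of 111, and for dendritic cells 9 of 10 against 8 of 216. Pericytes had 6 Pdgfra UMIs, all in young mice. The 118 aged pericytes had 0 Pdgfra UMIs, which allows a level of up to 4.99 CPM (counting error only). In myoepithelial cells Pdgfra was 5.67, 24.6 and 13.0 CPM in young and 0.57 to 1.84 CPM in aged mice on 22 UMIs, under the count filter, and the fibroblast markers there (given above for Pdgfb) were also lower in every aged mouse than in any young one.

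Both kinase receptors passed the call in AV cells, at levels of a few CPM. Pdgfra was 5.77, 1.80 and 8.26 CPM in young and 1.15, 0.90, 1.23 and 0.81 CPM in aged AV cells, a log2 fold change of -2.29 (SE 0.44, edgeR adjusted p = 0.016). Pdgfrb was 5.19, 1.80 and 7.44 CPM in young and 0.49, 0.30, 0.27 and 0 CPM in aged AV cells, a log2 fold change of -3.99 (SE 0.63, edgeR adjusted p = 0.0057). These were 2 of 5 members tested, where 6.16% of all genes tested were called. For both receptors only the young mice reached the minimum level of the count filter, Young B on 1 UMI of each. The receptors were thus tested only through the group where they are high. The 6 fibroblast markers moved with them: all 6 had UMIs, and their summed level was 89.9 to 418 CPM in young and 9.67 to 36.0 CPM in aged AV cells. The pericyte markers (all 6 with UMIs) summed to 30.0 to 80.9 CPM in young and 10.9 to 17.6 CPM in aged mice, the vascular endothelial ones (all 5) to 20.2 to 48.5 and 11.3 to 16.6 CPM, the myeloid ones (all 3) to 102 to 162 and 12.5 to 63.7 CPM and the adipocyte ones (all 3) to 181 to 527 and 20.9 to 51.2 CPM. The part of these markers in the receptor calls was not tested. The 201 of 4820 AV cells with a UMI of Col1a1, Col1a2 or Col3a1 carried 22 of the 61 Pdgfra UMIs and 25 of the 36 Pdgfrb UMIs. In the AV cells without such a UMI neither receptor passed the count filter. Summed over mice, Pdgfra was 2.65 CPM in young and 0.99 CPM in aged cells, on 10 and 29 UMIs. Pdgfrb was 1.33 CPM in young and 0.20 CPM in aged cells, on 5 and 6 UMIs. Without Young C the change was -1.82 for Pdgfra (edgeR adjusted p = 0.15) and -3.53 for Pdgfrb (adjusted p = 0.077), and without Young A it was -2.34 for Pdgfra (adjusted p = 0.060). When any 1 aged mouse was left out, neither receptor passed the count filter. Without ribosomal and mitochondrial genes no member was called in AV cells.

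Pdgfrb, which encodes the beta receptor on chromosome 18, was shared by fibroblasts and pericytes. Fibroblasts gave 1265 of its 1619 UMIs and pericytes 189. In fibroblasts the level was 135, 144 and 138 CPM in young and 93.1, 178, 63.3 and 73.1 CPM in aged mice, so that 3 of 4 aged mice lay under all young mice and Aged B above them. Its log2 fold change was -0.29 (SE 0.29, edgeR adjusted p = 0.64).

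In pericytes Pdgfrb was 149, 108 and 82.3 CPM in Young A, B and C and 59.0, 79.5, 33.9 and 51.5 CPM in Aged A to D. All aged mice lay below all young mice and Young C lay closest to them. With TMM size factors the groups overlapped. The log2 fold change was -0.90 (SE 0.32, edgeR adjusted p = 0.080), which did not pass. Of the 2 members tested in pericytes 0 were called by edgeR and 0 by DESeq2 (both had an unadjusted edgeR p under 0.05), where 11.8% of all genes tested were. With no filter on low counts the change was -1.04 (edgeR adjusted p = 0.040), a call. The 6 fibroblast markers, all with UMIs, summed to 490 to 873 CPM in young and 50.9 to 202 CPM in aged pericytes. Fabp4 was 11519 to 13765 CPM in young and 4995 to 8758 CPM in aged pericytes, and the endothelial markers are given above for Pdgfd. Their part in the Pdgfrb result was not tested. The age effect in fibroblasts minus that in pericytes was 0.46 on the log2 scale (exact two-sided permutation test, p = 0.17), so a difference between both types was not shown.

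Pdgfrl, at chr8:40926212-40990785 (plus strand), had a different spread, with 274 of its 640 UMIs in myoepithelial cells, 220 in fibroblasts and 94 in HS cells. Its product resembles the receptors outside the cell and lacks a kinase. In fibroblasts it was 13.5, 10.4 and 26.3 CPM in young and 48.3, 28.8, 12.7 and 101 CPM in aged mice, with overlapping groups, and the 101 CPM of Aged D came from 17 cells. Its log2 fold change was 1.49 (SE 0.47, edgeR adjusted p = 0.10). It passed without Young C (2.09, adjusted p = 0.0497) and with no filter on low counts (1.28, adjusted p = 0.016). Myoepithelial cells held 30.7 ± 10.5 CPM (SD, n = 7), with a log2 fold change of 0.49 (SE 0.35, edgeR adjusted p = 0.32).

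Pdgfrl rose with age in HS cells. Young A, B and C held 3.28, 3.18 and 4.09 CPM and Aged A to D held 17.1, 9.25, 5.43 and 11.8 CPM. The groups did not overlap, and the log2 fold change was 1.70 (SE 0.36, edgeR adjusted p = 0.022). Of the 3 members tested in HS cells Pdgfrl alone was called, where 6.26% of all genes tested were called. Only the aged mice reached the minimum level of the count filter for Pdgfrl. The gene was thus tested only through the group where it is high. The call was lost without Young A, B or C and without Aged D, with adjusted p (edgeR) of 0.075, 0.068, 0.080 and 0.051, and without Aged B no call was made. The replicate block of the label letters gave an adjusted p of 0.11. All 6 fibroblast markers had UMIs in HS cells and summed to 67.9 to 183 CPM in young and 290 to 1831 CPM in aged mice. Of them, Dcn was 52.0 to 85.6 CPM in young and 286 to 1825 CPM in aged mice, while Col3a1 was 3.18 to 27.3 CPM in young and 0 to 1.63 CPM in aged mice. The 3 myeloid markers summed to 66.9 to 84.5 CPM in young and 8.15 to 43.8 CPM in aged mice, and the 3 adipocyte markers to 93.97 to 297 and 14.1 to 48.5 CPM. Their part in the Pdgfrl result was not tested.

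**Figure D2:**
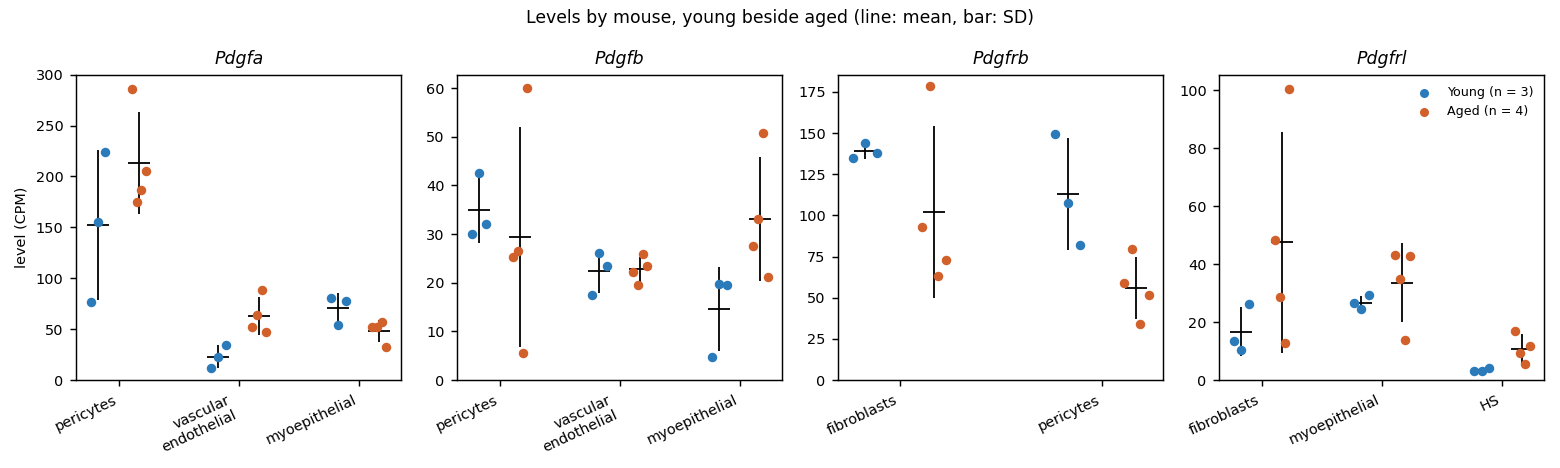
Level (CPM, vertical axis, from 0) of Pdgfa, Pdgfb, Pdgfrb and Pdgfrl in the cell types that hold them. Points are mice, blue for young (n = 3) and orange for aged (n = 4), with the mean as a line and the SD as a bar. Pdgfa in vascular endothelial cells, Pdgfb in myoepithelial cells, Pdgfrb in pericytes and Pdgfrl in HS cells have plotted groups that do not overlap. On levels with TMM size factors, 36.8, 35.7, 24 and 21.5% of all genes tested in these types do not overlap. On that scale the groups of Pdgfrb in pericytes overlap, and those of the other pairs named do not.

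Of 49 pairs of a member and a type in the 7 types compared, 21 passed the count filter and 5 were called, 3 higher and 2 lower in aged mice. Of all genes tested, 26.7% were called in vascular endothelial cells, 27.6% in myoepithelial cells, 6.26% in HS cells and 6.16% in AV cells, the types of these calls. In fibroblasts it was 3.17% and in pericytes 11.8%. The pairs called in HS and AV cells passed the filter only through the age group where they are high. No member passed the filter in Mb macrophages, where 1.16% of the genes tested were called and aged mice gave 3 to 9 cells each. Pdgfa in Mb macrophages was 48.1, 52.1 and 108 CPM in young and 249, 100, 232 and 41 CPM in aged mice, with overlapping groups.

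**Figure D3:**
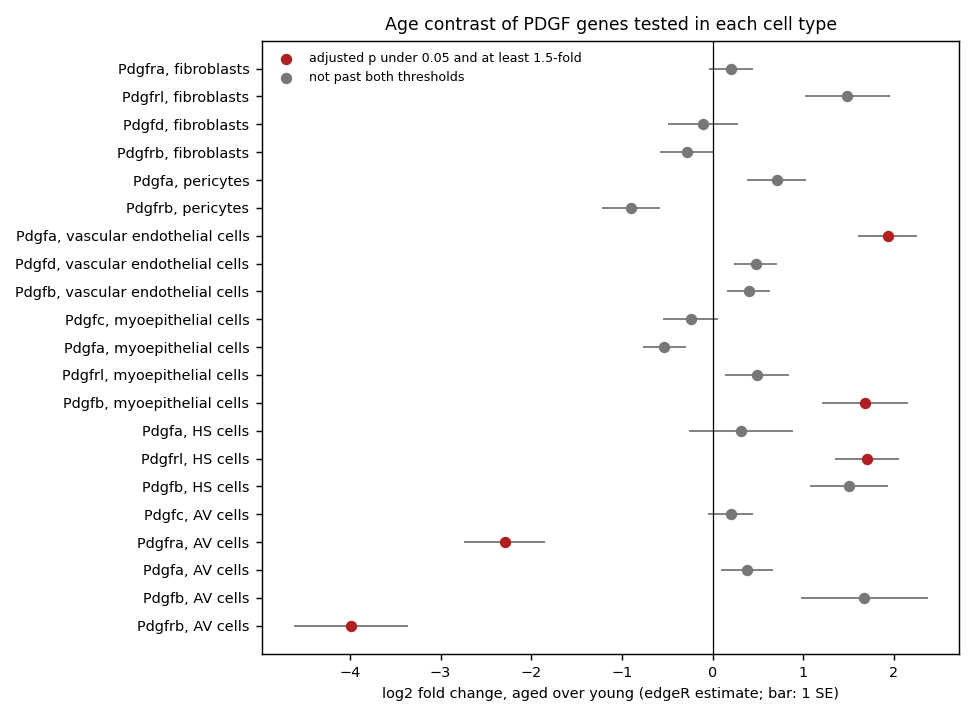
Log2 fold change of aged over young mice (horizontal axis, edgeR estimate, bar 1 SE) for the 21 tested pairs of a member and a cell type (vertical axis). The 5 red points passed an adjusted p under 0.05 and at least 1.5-fold, from Pdgfrb in AV cells at -3.99 to Pdgfa in vascular endothelial cells at 1.93. In the types of these points 6.16 to 27.6% of all genes tested passed.

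Most pericytes carried endothelial transcripts, and the share was lower in every aged mouse than in any young one. A UMI of Pecam1, Cdh5 or Eng was found in 291 of 349 pericytes: in 98.3, 95.8 and 94.9% of those of Young A, B and C and in 45.8, 45.7, 78.6 and 65.0% of those of Aged A to D (exact two-sided permutation test, p = 0.057). Summed over the 291 cells, 5 endothelial markers stood at 1689 CPM, beside 2078 in vascular endothelial cells. In the other 58 pericytes 3 of the 5 are at 0 by the split. The pericyte markers were present in both sets, at 1307 CPM in the 291 and 1758 in the 58 cells.

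The PDGF genes differed between both sets of pericytes. Of 58 Pdgfb UMIs, 57 came from the cells with an endothelial UMI, 36.0 CPM against 3.95 CPM. Pdgfa was 120 CPM with and 352 CPM without an endothelial UMI, and it was higher without in 7 of 7 mice. Pdgfrb was 105 CPM with and 86.9 CPM without over the cells of all mice, an order that the aged cells reversed. In young cells it was 126 CPM with and 118 CPM without, the latter on 4 UMIs. In aged cells it was 41.9 CPM with and 82.1 CPM without, and of the aged mice only Aged A was higher with. Median UMIs per cell were 5334 with and 4030 without an endothelial UMI. The set without held 7 cells in young mice, so its levels rest mainly on aged mice.

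In the cells with an endothelial UMI Pdgfrb was 151, 100 and 86.2 CPM in young and 63.4, 55.5, 26.9 and 37.5 CPM in aged mice, again with no overlap. The log2 fold change was -1.34 (edgeR adjusted p = 0.077), and Pdgfrb could not be fitted in the cells without. Pdgfa gave 0.71 (SE 0.32, edgeR adjusted p = 0.17) over all pericytes and 0.21 in the set with (adjusted p = 0.83). The set without held 2, 3 and 2 young cells in Young A, B and C, too few to read a direction with age from it.

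Vascular endothelial cells held the reverse. A UMI of Rgs5, Des or Notch3 was found in 221 of 1819, and these carried 43 of the 61 Pdgfrb UMIs of the type, 34.3 CPM against 2.13 CPM in the others. Of the 221 cells, 167 came from young mice. Such cells were 15.4, 17.2 and 26.9% of the type in Young A, B and C and 4.68, 2.81, 9.84 and 8.06% in Aged A to D. Pdgfrb was 32.1 CPM with and 4.00 CPM without such a UMI in young cells, and 39.4 and 0.64 CPM in aged cells. Pdgfd was 17.5 CPM in the cells with such a UMI and 20.7 CPM in those without. These levels were 14.9 and 20.3 CPM in young cells and 23.6 and 21.1 CPM in aged cells.

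**Figure D4:**
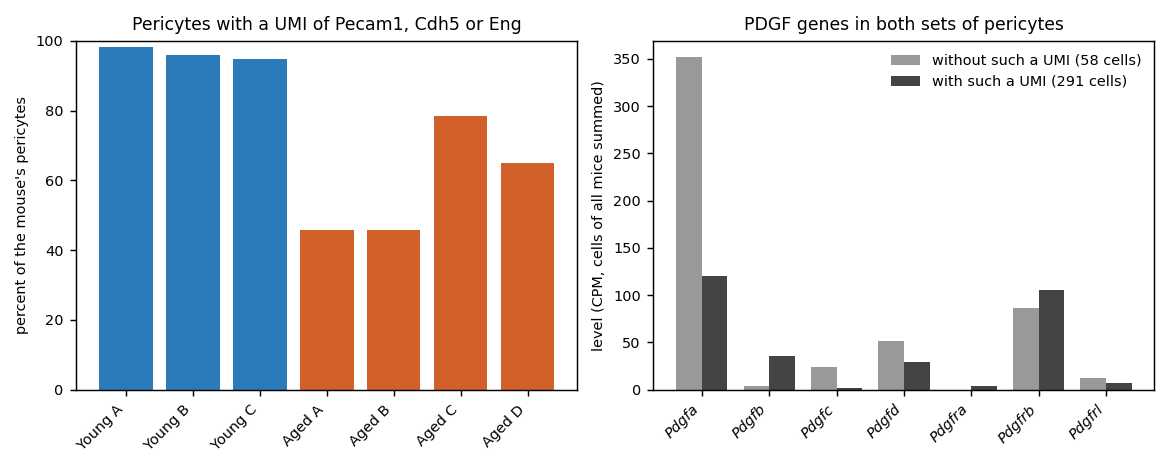
Left, percent of a mouse's pericytes with a UMI of the endothelial genes Pecam1, Cdh5 or Eng (vertical axis, from 0), 1 bar per mouse, blue for young and orange for aged. Right, level of the 7 PDGF genes (CPM, vertical axis, from 0) in the 58 pericytes without such a UMI and the 291 with one, cells of all mice summed, with no error bars since the bars are sums. Pdgfb falls almost wholly in the dark bars, and Pdgfa is higher in the light one.

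Detection of the receptors per cell was compared at equal depth, each cell thinned to 2000 UMIs (no cell was shallower). A Pdgfra UMI was found in 26.8 ± 3.16% of fibroblasts in young (SD, n = 3) and 29.4 ± 10.8% in aged mice (SD, n = 4; exact two-sided permutation test, p = 0.77). A Pdgfrb UMI was found in 21.3 ± 1.30% of young and 15 ± 11.1% of aged fibroblasts (exact test, p = 0.34), and in 18 ± 4.45% of young and 8.37 ± 7.99% of aged pericytes (exact test, p = 0.20). Over the 21 pairs of a gene and a type that gave at least 5% of its UMIs, the lowest adjusted p (Benjamini-Hochberg, exact permutation test) was 0.30. AV cells were used as the background type since the receptors are known from mesenchyme. Over the AV cells of all mice, 0.54% had a Pdgfra UMI and 0.21% a Pdgfrb UMI at that depth, and 1.06% and 0.60% as deposited. This background differed with age. Averaged over mice at 2000 UMIs, it was 1.28% in young and 0.37% in aged mice for Pdgfra, and 0.71% and 0.06% for Pdgfrb. Median depths as deposited were 4414 UMIs in fibroblasts, 5065 in pericytes and 6632 in AV cells.

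As deposited, 49.4% of the 1993 fibroblasts had a Pdgfra UMI, 36.0% a Pdgfrb UMI and 381 cells (19.1%) both, while 33.8% had neither. The product of both shares is 17.8%. The share with both was 21.0, 17.9 and 18.8% in Young A, B and C, beside products of 18, 17.5 and 17.8%. In aged mice it was 14.9, 22.0, 6.67 and 23.5%, beside products of 15.1, 21.9, 8 and 24.2%. At 2000 UMIs a cell, 6.57% of all fibroblasts had both, beside a product of 5.43%, and in Young A 8.78% beside 6.03%. As deposited, the share with both lay above the product in 3 of 3 young mice and below it in 3 of 4 aged mice, and the difference was not tested. Thinned to 2000 UMIs, the share with both stayed above the product in every young mouse. In Aged A to D the thinned share was 5.79, 12.2, 0 and 5.88%, beside products of 5.86, 10.7, 0.89 and 2.08%. Aged C and Aged D held only 15 and 17 fibroblasts. In pericytes 116 cells had Pdgfrb alone, 4 Pdgfra alone and 2 both.

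The share of each transcript that came from a cell type was set beside the share of cells of that type. Fibroblasts were 25.5% of the cells in young mice on average and 2.76% in aged mice. They gave 91.8, 89.8 and 92.6% of the Pdgfra UMIs of Young A, B and C and 91.5, 75.5, 47.4 and 64% of those of Aged A to D (exact two-sided permutation test, p = 0.086). For Pdgfrb the share was 71.9, 71.0 and 88.9% in young and 67.5, 58.5, 25 and 36.4% in aged mice (exact test, p = 0.057). Over 21 shares tested, each in the same way, the adjusted p of both (Benjamini-Hochberg, exact permutation test) was 0.15 and 0.12, and the lowest of any share was 0.086.

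For the ligands, AV cells were 11.7% of the cells in young and 55.9% in aged mice. They gave 13.9 ± 5.77% of the Pdgfa UMIs of young mice (SD, n = 3) and 50.3 ± 2.48% of those of aged mice (SD, n = 4; exact permutation test, p = 0.029, adjusted p = 0.086). Of the Pdgfd UMIs, fibroblasts gave 55.6 ± 25.5% in young and 10.4 ± 11.3% in aged mice (exact test, p = 0.029, adjusted p = 0.086). Over all captured cells of a mouse, Pdgfra was 23.6 to 48.95 CPM in young and 1.86 to 12.6 CPM in aged mice, and Pdgfrb was 26.5 to 46.3 CPM in young and 1.96 to 7.75 CPM in aged mice. The age groups do not overlap for either receptor. Those of Pdgfa, Pdgfb and Pdgfc, all higher in aged mice, and of Pdgfd, lower in aged mice, do not overlap either, while those of Pdgfrl do. The share of all genes with such groups was not computed. These values hold the makeup of the captured cells as well as the level per type.

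**Figure D5:**
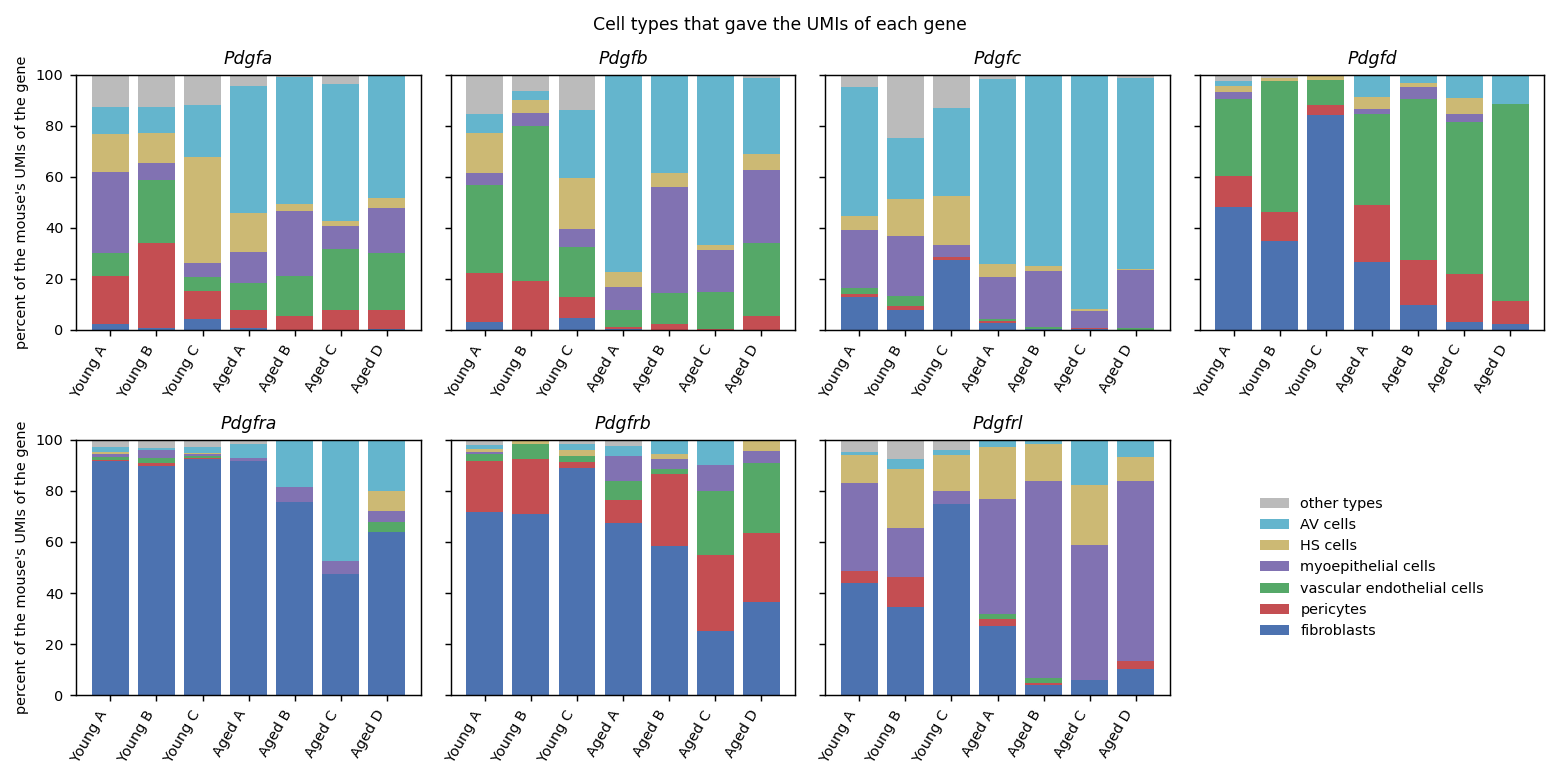
Percent of each mouse's UMIs of a PDGF gene (vertical axis) that came from each cell type (colours), 1 bar per mouse. Fibroblasts, in dark blue, give most of the Pdgfra UMIs in young mice (89.8 to 92.6%) and less in Aged B to D (47.4 to 75.5%), and AV cells, in light blue, give on average 50.3% of the Pdgfa UMIs in aged mice.

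The genes around the receptors were counted in 4 lists: ligand processing and binding (11 genes), signal relay (36), restraint (16) and early response (13). In fibroblasts, of 10, 24, 14 and 12 tested, 0, 0, 2 and 2 were called, where 3.17% of all genes tested were. Spry2, which restrains receptor signalling, rose by 1.30 on the log2 scale (edgeR adjusted p = 0.045). Among the early response genes Ier3 rose by 1.59 (adjusted p = 0.0091) and Fosb fell by 1.29 (adjusted p = 0.022). With no filter on low counts 7 of the listed genes were called in fibroblasts, with the replicate block of the label letters 0, without Young B or without Young C 1, and without Aged A or without Aged C 2.

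In pericytes 7 listed genes were called of 38 tested, 6 of them early response genes. Cxcl1 rose by 1.30 (edgeR adjusted p = 0.012), Ier3 by 0.92 (adjusted p = 0.011) and Myc by 0.87 (adjusted p = 0.041), while Fosb fell by 1.32 (adjusted p = 0.0043). Sparc, a matrix protein that binds PDGF, fell by 0.90 (adjusted p = 0.012). Of all 2601 genes tested in pericytes 11.8% were called. These counts are over all pericytes, whose endothelial marker sum was lower in every aged mouse, as given above for Pdgfd, and its part in them was not tested. Without Young A, Young B or Young C, 3 were called.

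Vascular endothelial cells had 23 calls of 62 tested and myoepithelial cells 21 of 63, where 26.7% and 27.6% of all genes tested were called. In vascular endothelial cells 10 rose, among them Cxcl1 (2.90 on the log2 scale, edgeR adjusted p = 1.4e-05), Ier3 (2.00, adjusted p = 1.2e-06) and Stat5a (1.99, adjusted p = 5.1e-05), and 13 fell, among them Ccl7 (-3.63, adjusted p = 0.016) and Vav3 (-2.17, adjusted p = 0.0019). In myoepithelial cells 14 rose, among them Cxcl1 (5.74, edgeR adjusted p = 1.2e-06), the kinase gene Map2k1 (1.80, adjusted p = 0.000105), Spry2 (1.66, adjusted p = 0.0024) and the convertase gene Pcsk5 (1.65, adjusted p = 0.0045), and 7 fell. Without Young A, 13 were called in myoepithelial cells.

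HS cells had 8 calls of 60 tested, where 6.26% of all genes tested were called, with Cxcl1 (1.77, edgeR adjusted p = 0.029) and the matrix gene Thbs1 (1.47, adjusted p = 0.048) up and Ccl7 (-2.98, adjusted p = 0.049), Sparc (-1.77, adjusted p = 0.028) and Nrp1 (adjusted p = 0.049) down. AV cells had 6 of 74, where 6.16% of all genes tested were called, with Nrp1 (-3.13, adjusted p = 0.0086), Sparc (-3.09, adjusted p = 0.00066), Ccl7 (-2.94, adjusted p = 0.026), Ccl2 (-2.36, adjusted p = 0.035) and Lrp1 (-2.27, adjusted p = 0.025) down. The fibroblast markers of AV cells, given above, were also lower in every aged mouse than in any young one. Leaving out single mice left 2 to 5 calls in HS cells and 2 to 5 in AV cells. Mb macrophages had 0 of 15 by edgeR (4 had an unadjusted p under 0.05) and 1 by DESeq2.

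Across types, Sparc was called lower in aged mice in 5 of 6 types tested, and its adjusted p in the remaining type, fibroblasts, was 0.062. Ier3 was called higher in 5 of 7 types and Cxcl1 in 4 of 7. The median log2 fold change of the 24 signal relay genes in fibroblasts was 0.15 and that of the 12 early response genes 0.48. That of the 14 restraint genes was 0.43, that of the 10 ligand processing and binding genes -0.18 and that of all genes tested there 0.0026.

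Over 58 sums of a mouse and a type with at least 10 cells, the genes with the pattern most like each member were sought among 11615 genes by Pearson's r on log2(CPM + 1). The sums share mice and cell types, so r is a description. For Pdgfra these were Mfap2 (r = 0.93), Dpep1 (0.91), Fbln1 (0.91), Dpt (0.90) and Has1 (0.89), and for Pdgfrb they were Ebf2 (0.93), Shox2 (0.91), Ccl11 (0.91), Fxyd1 (0.90) and Ntrk2 (0.90), all highest in fibroblasts. For Pdgfd they were Fhl1 (0.91), Mustn1 (0.91), Ntf3 (0.91), Runx1t1 (0.88) and Angpt2 (0.88), of which Mustn1, Ntf3 and Runx1t1 were highest in pericytes.

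The other members had looser neighbours. For Pdgfa they were Actn4 (0.74), mt-Nd4l (0.71), Hspb6 (0.70), F11r (0.70) and Fblim1 (0.70), for Pdgfb Fnbp1l (0.78), Pde4b (0.77), Tmem51 (0.71), Adgrg1 (0.70) and Fam189a2 (0.68). For Pdgfc they were Stac2 (0.69), Prkci (0.68), Col4a6 (0.68), Stk39 (0.67) and Rhou (0.67), and for Pdgfrl Gpr153 (0.77), Gli3 (0.75), Cpxm2 (0.73), Map1lc3a (0.73) and Cacna2d1 (0.73). Among the members, r was highest between Pdgfd and Pdgfrb (0.77), between Pdgfa and Pdgfb (0.65) and between Pdgfra and Pdgfrb (0.59), and lowest between Pdgfb and Pdgfra (-0.58).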

How the data were processed

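Single-cell RNA was measured in 7 mice, 1 10x 3′ v2 library each. Per the labels and the study's methods, the authors used Cell Ranger 2.0 with mm10, filtered and annotated the cells, and deposited raw UMI counts (not normalized) with a cell type for each of 13684 cells. The authors also deposited, per cell, the mitochondrial share of UMIs and cell-cycle scores made with Seurat, and the scores were not used. The doublets were left as the authors left them. Mice were grouped by their labels, and the counts of a mouse's cells of 1 type were added up (at least 3 cells). Young and aged sums were compared with edgeR 4.0.16 (quasi-likelihood test, filterByExpr, TMM, R 4.3.3), with Benjamini-Hochberg adjustment over all genes tested in a type. A call needs an adjusted p under 0.05 and at least 1.5-fold. Single values were compared by the exact two-sided permutation test over 35 divisions (smallest p 0.029). p-values measure the spread between mice. For detection each cell was thinned to 2000 UMIs (seed 41). The genes named are the 7 members, up to 5 called pathway genes of largest change per type, and the 5 genes most like each member. A named pathway result is not reported here. The fit was tested on simulated data with known changes. The deposited UMI number of 2263 cells differs from the matrix sum, which was used here. The label letters name different animals and do not pair them (same-letter correlations of -0.33 to 0.32). Alternatives were DESeq2 1.42.0, other size factors, no count filter, at least 10 cells, genes left out, the letter block and each mouse left out. The members and gene lists were chosen with earlier results of these data known. Splits of cells by endothelial, pericyte or collagen UMIs were added after the data were seen.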

Additional observations from a re-analysis of the deposited data

Results flagged for a closer look

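Pdgfa in HS cells was 58.5 CPM in Aged A, far from the 7.30 to 15.4 CPM of the other aged mice, which flagged it among 21 groups looked at, of which chance flags about 1 in 20. Without Aged A the log2 fold change with age in HS cells was -0.76 (edgeR adjusted p = 0.38) in place of 0.31 (adjusted p = 0.80).

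The age effect on Pdgfa in vascular endothelial cells exceeded that in myoepithelial cells by 2.05 on the log2 scale (exact permutation test, p = 0.029). This difference between cell types flagged the gene. The pair of types was chosen after these same values were seen, so the p-value is no independent support. The difference was 1.56 to 2.32 when each mouse was left out in turn.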

How the results depend on the processing

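Of 339 alternative values of the main results 288 kept their direction and side of the threshold, and of 186 for single genes 168 did. With no filter on low counts 1, 1, 2, 2 and 2 members were called in fibroblasts, pericytes, vascular endothelial, myoepithelial and HS cells (0, 0, 1, 1 and 1 with it), Pdgfra in fibroblasts was -0.023, Pdgfrl there 1.28, Pdgfrb in pericytes -1.04, and 7 listed pathway genes were called in fibroblasts and 1 in Mb macrophages. The replicate block of the label letters, which do not pair the mice, gave 0 members in HS and 1 in AV cells, 0 pathway genes in fibroblasts and 3 in HS cells, and 0.038 for Pdgfd in fibroblasts. DESeq2 called 10 pathway genes in AV cells and 1 in Mb macrophages. Without ribosomal and mitochondrial genes 0 members were called in AV cells. Leaving out Aged C and Aged D gave 2 pathway genes in fibroblasts and 0.11 for Pdgfd there. Leaving out each mouse gave 0 to 1 members in fibroblasts, 0 to 1 in HS and 0 to 2 in AV cells, and pathway counts of 1 to 3 in fibroblasts, 3 to 10 in pericytes, 13 to 22 in myoepithelial cells, 2 to 5 in HS, 2 to 5 in AV cells and 0 to 1 in Mb macrophages. Pdgfrl in fibroblasts was then 1.17 to 2.09. The sign turned for Pdgfd in fibroblasts without Aged D (-0.34 to 0.020 over single mice), Pdgfc in myoepithelial cells without Young B (-0.44 to 0.14), Pdgfc in AV cells without Young C (-0.060 to 0.59) and Pdgfa in HS cells without Aged A (-0.76 to 0.97). For Pdgfa in pericytes without endothelial UMIs the fit gave -0.82 on 7 young cells, with 2 young mice under 3 cells, which gives no direction. The cause was not tested. With 1 mouse left out the exact tests cannot go below 0.067 or 0.1. Pdgfrb in pericytes without endothelial UMIs and the receptors in AV cells without collagen UMIs gave no value. Aged fibroblasts numbered 15 to 121 cells a mouse, which limits their precision.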
